A study of Mus musculus with 26 samples.

Results

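Ttn, Acta1, Ckm and Des were examined as 4 genes that build or fuel the contractile apparatus of skeletal muscle. They were represented by 4 windows of mouse build mm9: chromosome 2, 76520000 to 76840000 for Ttn; chromosome 8, 126395000 to 126440000 for Acta1; chromosome 7, 19975000 to 20030000 for Ckm; and chromosome 1, 75335000 to 75385000 for Des. Every peak that touched a window counted as a member, which gave 196 of the 762764 peaks in 16 lists. Of these, 41 were SMC3 peaks, 124 were ATAC peaks and 31 were ChIRP summits. The Ttn window of 320 kb held 88 peaks, the Des window of 50 kb held 53, the Acta1 window of 45 kb held 32 and the Ckm window of 55 kb held 23.

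All libraries came from C2C12, a mouse myoblast line that stops dividing and fuses into multinucleate myotubes when serum is withdrawn. Growth medium contained 20% serum, and myotubes (MT) were formed in 2% horse serum with insulin, transferrin and selenium; myoblasts (MB) were kept in growth medium. SMC3 ChIP-seq was made from myotubes transfected with siDRR, from myotubes whose labels name no transfection, and from myoblasts. ATAC-seq was made from myotubes transfected with siSmc3, siDRR or a control siRNA, and ChIRP-seq of the DRR RNA from myotubes with probe pool 1 or probe pool 2. Each of the 8 groups had n = 2 libraries from 1 cell line, and separate cultures are not stated, so the spread between replicates may be technical. Peak lists hold no RNA levels, so the knockdowns, the muscle identity of the cells and the RNA of the 4 genes could not be checked.

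SMC3 is a core subunit of cohesin, the ring that holds sister chromatids together and that extrudes chromatin loops until it meets CTCF or leaves the fibre. ATAC-seq marks open chromatin by transposase insertion. ChIRP-seq uses biotinylated probes to recover an RNA with the chromatin it touches. The DRR RNA is transcribed from an enhancer upstream of Myod1, and the series, by its title, is about cohesin recruitment and transcription in trans by that RNA. Titin, the product of Ttn, spans from Z disc to M line and acts as the spring and ruler of the sarcomere. Acta1 encodes skeletal alpha-actin, the core of the thin filament; Ckm encodes muscle creatine kinase, which buffers ATP at the M line; Des encodes desmin, the intermediate filament that ties neighbouring Z discs together. Genes of this kind are known to be switched on as myoblasts differentiate, with MyoD family, MEF2 and SRF factors among their regulators.

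The promoters are shown because MyoD family factors read E-boxes, with the letters CANNTG, and SRF reads CArG boxes. The sequences are those of RefSeq for build GRCm38.p6, 250 bases before each gene start, 5′ to 3′ on the gene's strand. In that build they lie at chr2:76982548-76982797 for Ttn and chr8:123894776-123895025 for Acta1, both on the minus strand, and at chr7:19410844-19411093 for Ckm and chr1:75360042-75360291 for Des, both on the plus strand; these positions cannot be set against mm9 peaks. No gene position of build mm9 was used here, so no peak can be assigned to a promoter, exon or intron. Capitals mark E-boxes and the CArG box.
Ttn: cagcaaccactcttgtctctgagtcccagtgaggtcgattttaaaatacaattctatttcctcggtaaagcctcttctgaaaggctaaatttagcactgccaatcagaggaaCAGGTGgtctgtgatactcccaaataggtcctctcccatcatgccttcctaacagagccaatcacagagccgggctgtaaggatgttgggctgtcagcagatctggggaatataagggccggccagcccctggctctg
Acta1: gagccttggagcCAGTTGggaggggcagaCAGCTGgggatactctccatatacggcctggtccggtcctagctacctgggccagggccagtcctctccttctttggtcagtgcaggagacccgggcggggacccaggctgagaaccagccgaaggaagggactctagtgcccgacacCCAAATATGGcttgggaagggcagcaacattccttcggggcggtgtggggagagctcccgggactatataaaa
Ckm: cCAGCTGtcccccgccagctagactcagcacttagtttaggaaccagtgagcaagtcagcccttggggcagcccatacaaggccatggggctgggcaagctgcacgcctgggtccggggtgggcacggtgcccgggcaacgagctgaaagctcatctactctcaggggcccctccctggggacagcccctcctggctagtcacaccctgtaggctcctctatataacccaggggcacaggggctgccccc
Des: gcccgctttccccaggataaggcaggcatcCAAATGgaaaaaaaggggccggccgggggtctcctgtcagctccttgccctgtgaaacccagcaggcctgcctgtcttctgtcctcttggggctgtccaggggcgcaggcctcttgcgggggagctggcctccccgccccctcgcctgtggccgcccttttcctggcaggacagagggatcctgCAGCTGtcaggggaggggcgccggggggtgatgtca

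Both strands were searched, and overlapping matches were counted. Each of the 4 promoters held an E-box: 1 in Ttn, 2 in Acta1, 1 in Ckm and 2 in Des. E-boxes of any kind are common, at 66.2% of 32851 promoters of the same length. The form CAGCTG, which is also counted under CANNTG, was present in Acta1, Ckm and Des and in 13.0% of all promoters. The Acta1 promoter alone among the 4 held a CArG box, found in 1.47% of all promoters, and the Ttn promoter alone held a MEF2 site, found in 2.92%. The letters TATAA were present in Ttn, Acta1 and Ckm, against 22.8% of all promoters. Their place differed: 28 to 24 bases before the start in Ttn and 29 to 25 in Ckm, but 7 to 3 in Acta1. Of 24 other sarcomere and muscle structure genes, 15 had a promoter sequence at hand. Of these, 14 held CANNTG, 5 held CAGCTG, 4 held a CArG box, 4 held TATAA and 1 held a MEF2 site. Peaks at those 24 genes were not counted, since their mm9 positions were not at hand. By gene order in GRCm38.p6, the nearest protein-coding neighbours are Plekha3 and Ccdc141 for Ttn, Ccsap and Nup133 for Acta1, Klc3 and Mark4 for Ckm, and Dnpep and Speg for Des. Peaks of the windows may belong to such neighbours.

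The lists set what can be compared. SMC3 lists held 8384 to 33154 peaks, ATAC lists 58138 to 103056 and ChIRP lists 3776 to 68812 summits; replicate 1 of the siDRR SMC3 group had the shortest SMC3 list and replicate 1 of pool 1 the shortest ChIRP list. No reads were given, so depth is unknown and a missing peak is not evidence of no binding. A peak's rank percentile gives the share of its own list that the authors' score puts at or below it, so that 100 is the best; such ranks show no change between lists. A region is a stretch of merged peaks. It is called lost when both libraries of the group a condition is set against have it and neither library of the condition does, and gained in the opposite case.

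**Figure D1:**
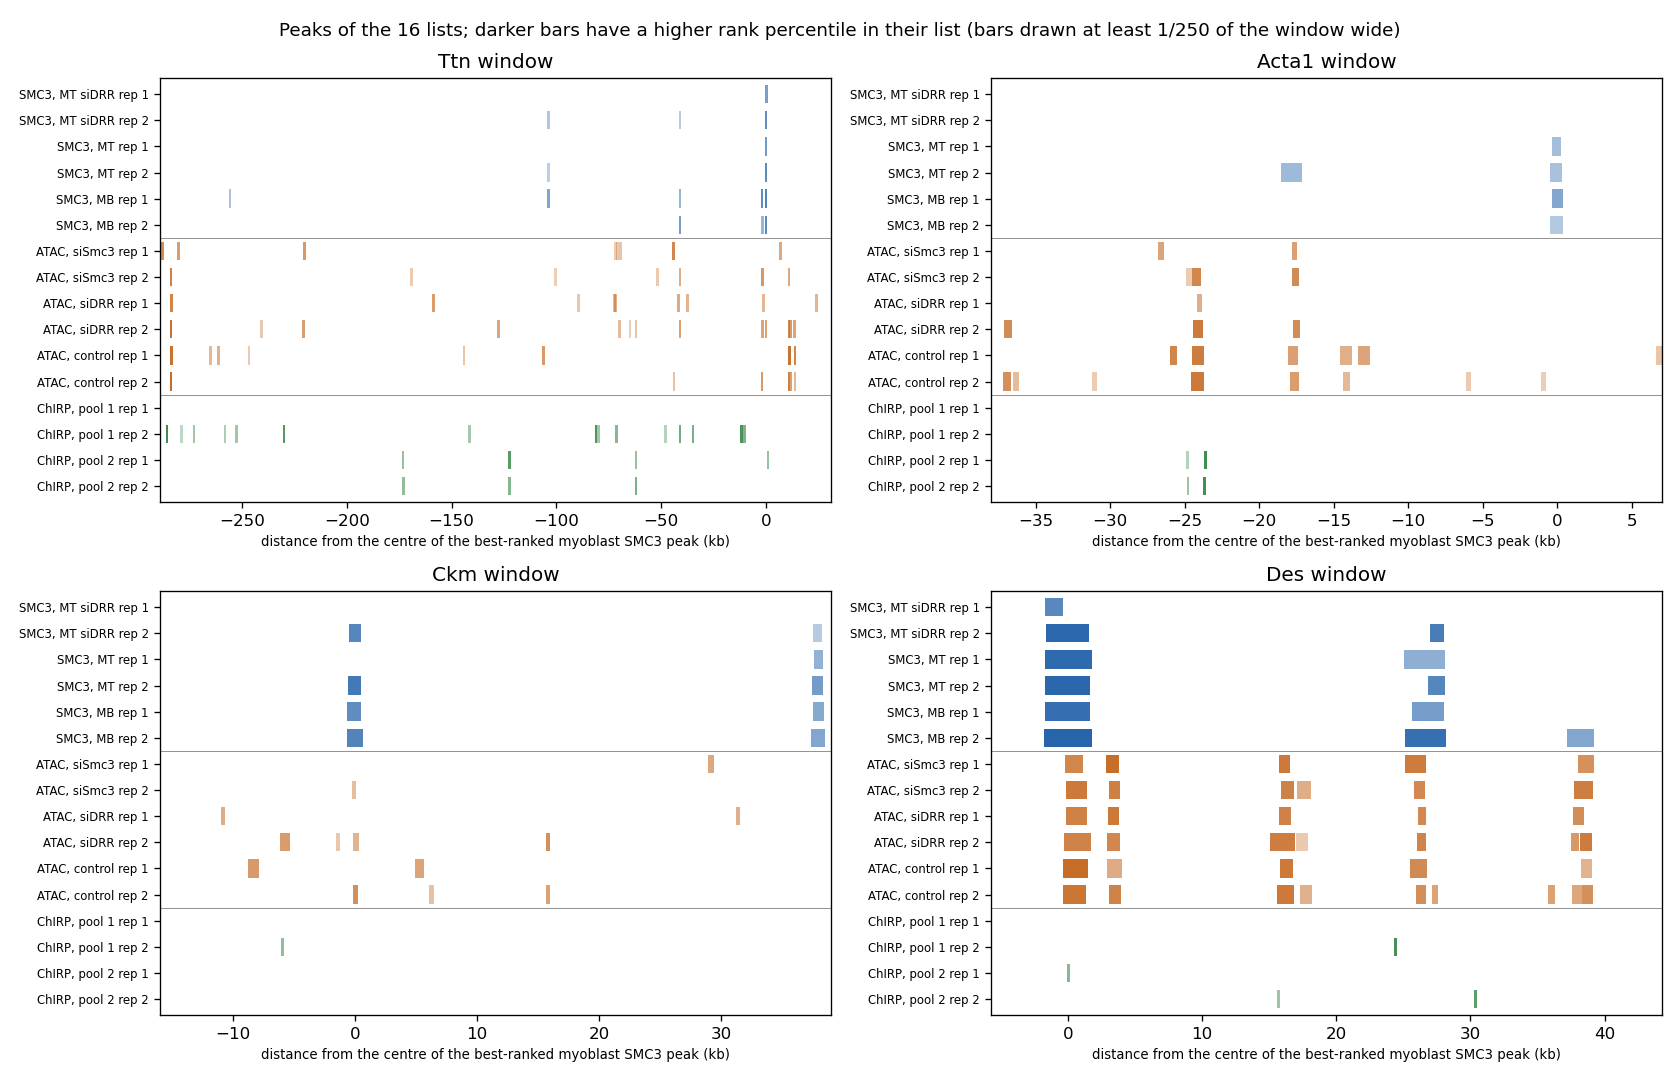
Position of every peak in the 4 windows, by library (rows) and by distance in kb from the centre of the best-ranked myoblast SMC3 peak of that window; darker bars rank higher in their own list, and narrow peaks are drawn wider than they are. At Des the SMC3 and ATAC peaks line up between rows, whereas 26 of 34 ATAC sites of the Ttn window stand in 1 library.

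The windows differed in how densely they were called. The Des window had SMC3 peaks at 3.41 to 7.02 times the density of the same list over the genome, in all 6 SMC3 libraries, and ATAC peaks at 3.08 to 4.78 times in all 6 ATAC libraries. The Ttn window, the longest, stood at 0.548 to 1.33 times for SMC3 and 0.498 to 1.14 times for ATAC, near the level of the whole list. Acta1 stood at 3.90 and 4.39 times in myotubes, from 1 and 2 SMC3 peaks, and at 1.90 and 1.77 times in myoblasts, from 1 and 1. In replicate 1 the 2 ratios thus differ by list length alone, 15056 peaks against 30955. Acta1 had no SMC3 peak under siDRR. Those lists held 3.17 and 8.78 peaks per Mb over the genome. Whether list length accounts for the missing Acta1 peaks was not tested. Ckm held SMC3 at 2.90 to 4.14 times in 5 libraries, from 1 or 2 peaks each, and none in replicate 1 of siDRR. Ckm had ATAC peaks at only 0.466 to 1.95 times the genomic density.

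**Figure D2:**
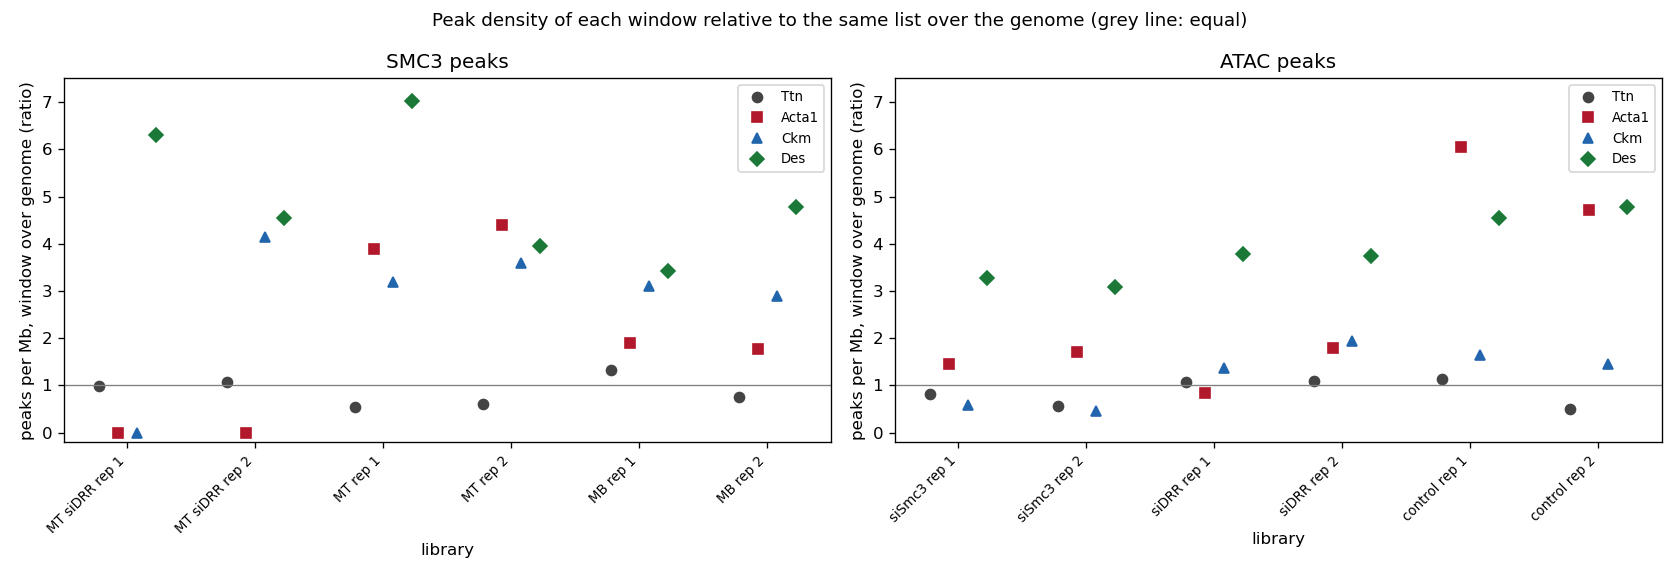
Peaks per Mb in each window divided by peaks per Mb over the genome in the same list (y axis), for SMC3 (left) and ATAC (right) libraries; each symbol is 1 window in 1 library and the grey line marks a ratio of 1. Des lies above 3 in all 12 libraries, and Acta1 ATAC values are 4.72 and 6.06 in control but 0.840 to 1.79 under the knockdowns.

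Cohesin at Des formed the broadest and best-ranked site of the 4 windows. The site lay at 75338927 to 75342523 on chromosome 1 and was called in all 6 SMC3 libraries. Rank percentiles were 62.8 and 92.0 in siDRR myotubes, 90.4 and 93.0 in myotubes, and 85.6 and 95.2 in myoblasts. Only replicate 1 of siDRR, from the shortest list, lies apart. Peak widths there were 1337 and 3175 bp in siDRR myotubes, 3480 and 3300 bp in myotubes, and 3308 and 3597 bp in myoblasts. The 3300 bp peak stands at the 97.8th width percentile of its list, which puts it among the widest peaks called. In replicate 1 of siDRR the narrower peak ended at 75340360 and so covered only the side of lower coordinates.

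A second Des site, at 75365801 to 75368897, was called in 5 SMC3 libraries. Its rank percentile was 73.0 in replicate 2 of siDRR, with no peak in replicate 1, against 28.8 and 65.0 in myotubes and 44.6 and 84.8 in myoblasts. The replicates of a group differed here by more than the groups did. Width varied as well: 1046 bp in siDRR replicate 2, 3051 and 1228 bp in myotubes, and 2341 and 3019 bp in myoblasts. The last Des site, at 75377915 to 75379932, was called in myoblast replicate 2 alone, at 36.2.

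Ttn held 5 SMC3 sites, of which 1 was present in every library. Over the 4 windows 2 of 12 SMC3 sites were called in all 6 libraries, close to the genome-wide share of 16.1%. That constant site lay at 76808401 to 76809628 on chromosome 2. Rank percentiles were 43.0 and 59.8 in siDRR myotubes, 46.8 and 60.1 in myotubes, and 67.5 and 62.5 in myoblasts. Both myoblast values exceeded those of the 4 myotube libraries, but ranks of lists of unequal length do not measure a difference. Just beside it, a site at 76806591 to 76807738 was called in both myoblast libraries, at 59.0 and 23.2, and in no myotube library of either kind. It is 1 of 2 Ttn regions lost on differentiation. The other, at 76767474 to 76768424, stood at 23.7 and 45.2 in myoblasts and was absent from both myotube libraries. A weak siDRR peak overlapped it in replicate 2, at 1.60.

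The remaining Ttn sites were weak and patchy. The site at 76704713 to 76705629 ranked at 7.29 in siDRR replicate 2, at 0.867 in myotube replicate 2 and at 38.4 in myoblast replicate 1. The site at 76552961 to 76553645 was called in myoblast replicate 1 alone, at 10.8. Neither was called in both libraries of any group.

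Ckm had 2 SMC3 sites. The stronger lay at 19990348 to 19991602 on chromosome 7 and was called in 4 libraries: at 64.8 in siDRR replicate 2, at 77.2 in myotube replicate 2, and at 58.7 and 67.4 in myoblasts. It was missing from replicate 1 of both myotube groups, the pair of shortest SMC3 lists. The site at 20028398 to 20029480 stood at 3.41 in siDRR replicate 2, 26.8 and 45.4 in myotubes, and 33.8 and 36.3 in myoblasts. It was therefore called in 5 of 6 libraries, always in the lower part of the list.

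No SMC3 peak of the Acta1 window ranked above 35.6, whereas each of the other windows had a better one. A site at 126432487 to 126433379 on chromosome 8 was absent from both siDRR libraries, at 15.6 and 12.2 in myotubes, and at 35.6 and 5.49 in myoblasts. As both myotube libraries called it, this is the single region of the 4 windows lost under siDRR. A second site, at 126414475 to 126415828, was called in myotube replicate 2 alone, at 18.9.

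**Figure D3:**
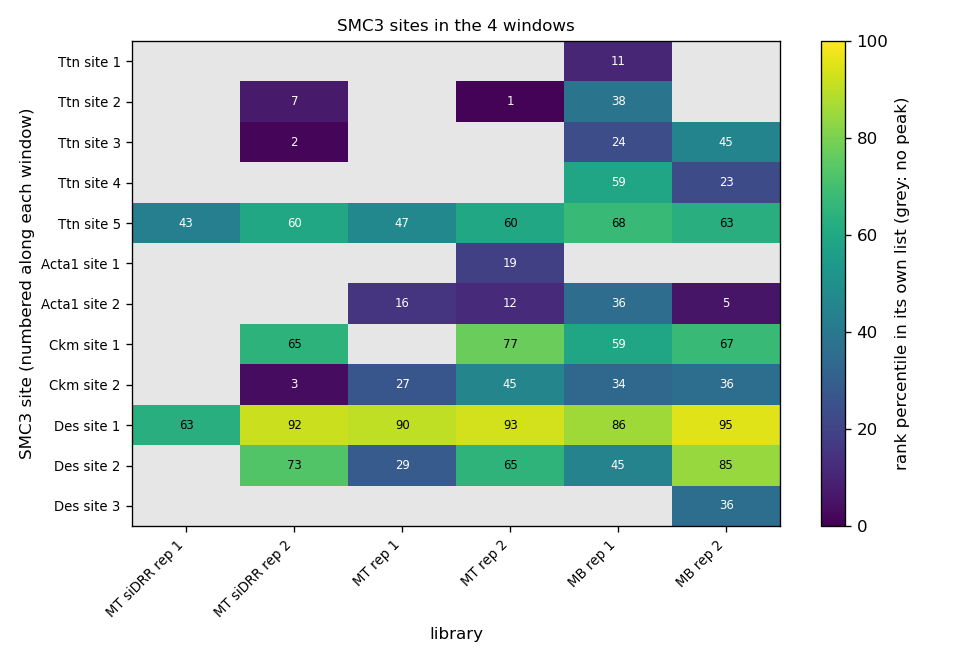
Rank percentile (colour and number, 0 to 100) of each of the 12 SMC3 sites (rows, numbered along each window) in the 6 SMC3 libraries (columns); grey cells have no peak. Ttn site 5 and Des site 1 are filled in all 6 columns, and Acta1 site 2 is empty in both siDRR columns.

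Over the 4 windows, myotubes had 5 and 8 SMC3 peaks and myoblasts 10 and 9, or 6.5 ± 2.12 against 9.5 ± 0.707 (SD, n = 2 each). Both whole myotube lists were also shorter, at 15056 and 26765 peaks against 30955 and 33154 in myoblasts. The two-sided exact permutation test on the 4 windows gave p = 0.33, the smallest value possible with 2 libraries against 2. With windows widened by 50 kb, or with the better-scoring 50%, the ranges of the groups met or overlapped (p = 1 each, exact permutation test), with differences of -3 and -1.5. Of 8 regions called in both myoblast libraries, 2 were lost in myotubes, both in the Ttn window, against a genome-wide share of 21.7%. Among 5 regions shared by the myotube libraries, 0 were gained, with 2.43% genome-wide; no test was run on these counts. In the Ttn window, myotubes had 1 and 2 peaks and myoblasts 5 and 3. Such a pattern, fewer in both myotube libraries than in either myoblast library, occurred in 41.5% of genome tiles of that length. Both patterns are common over the genome. With lists of equal length neither region counted as lost, the Ckm region at 20028456 to 20029374 counted as gained, and the difference in peak number was 1 in place of -3. Without myotube replicate 1, 1 region counted as gained, the Acta1 site at 126414475.

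Under siDRR, myotubes had 2 and 7 SMC3 peaks, against 5 and 8 without it, or 4.5 ± 3.54 against 6.5 ± 2.12 (SD, n = 2 each; p = 0.667, two-sided exact permutation test). The ranges overlapped. Among 5 regions shared by the myotube libraries, 1 was lost, the Acta1 region, against 6.45% genome-wide. Of 2 regions called in both siDRR libraries, 0 were gained, against 0.502% genome-wide. The Acta1 window had 0 and 0 peaks under siDRR and 1 and 2 in myotubes. A lower number in both siDRR libraries occurred in 4.36% of genome tiles of that length, which were not matched for peak number. The lost region ranked low in both myotube lists, and it did not count as lost with equal list lengths or with the better-scoring 50%, where 0 regions were lost. Without siDRR replicate 2, 3 regions counted as lost, and without myotube replicate 1, 2 did. Without siDRR replicate 1, 1 region counted as gained, in the Ttn window, and the difference in peak number was 0.5 in place of -2. With windows widened by 50 kb that difference was -7.5, with the better-scoring 50% it was 0, and with lists of equal length 0.5.

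**Figure D4:**
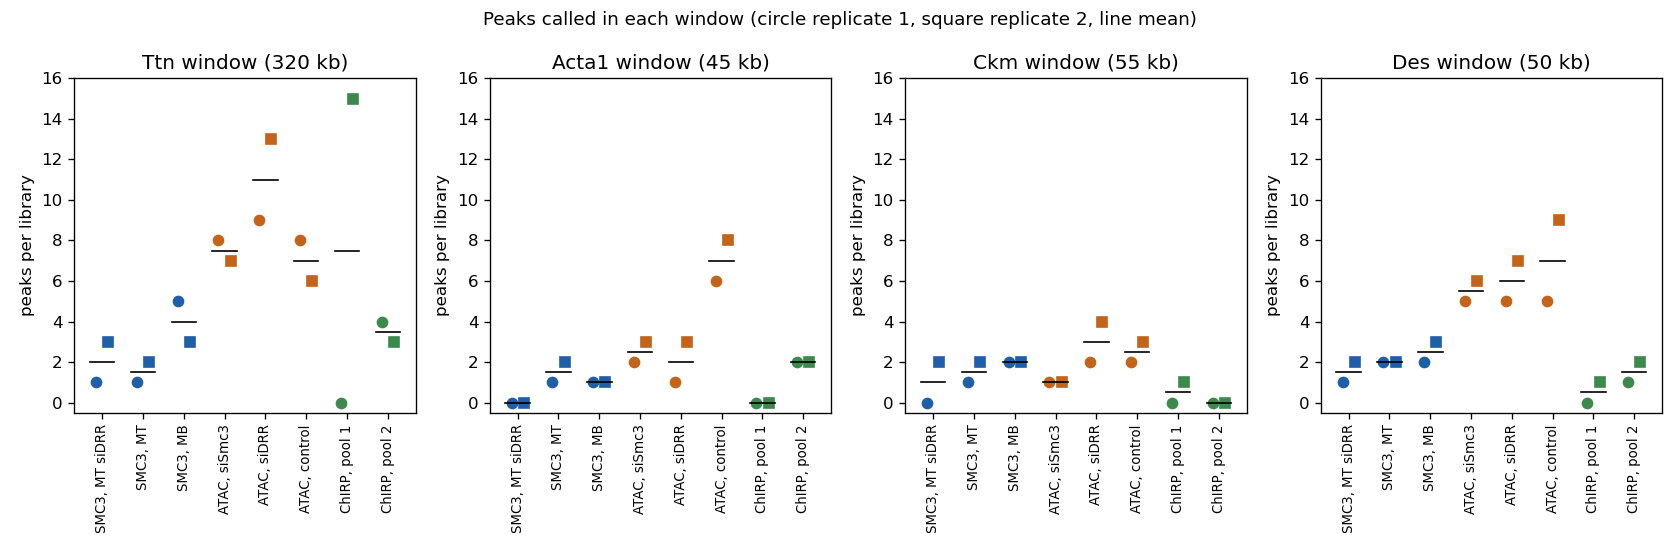
Number of peaks (y axis) in each window for every library, grouped by assay and condition (x axis); circles are replicate 1, squares replicate 2 and lines the mean of the 2. In the Acta1 window the control ATAC libraries have 6 and 8 peaks and the knockdown libraries 1 to 3.

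Open chromatin was steadiest at Des. Of 8 ATAC sites in that window, 5 were called in all 6 ATAC libraries, against 9.74% of sites over the genome; none of the other windows had a site called in all 6. The site with the highest mean rank in control, at 75340358 to 75342434, stood at 68.4 and 80.3 under siSmc3, 73.5 and 70.9 under siDRR, and 92.1 and 84.0 in control. It was chosen by its control ranks, so lower knockdown ranks there are no finding. The site at 75343573 to 75344748 stood at 91.3 and 74.6 under siSmc3, 80.0 and 67.9 under siDRR, and 33.7 and 71.0 in control. The site at 75355799 to 75357641 varied least, at 79.4 and 72.3 under siSmc3, 72.1 and 76.3 under siDRR, and 81.1 and 81.1 in control. The remaining pair, at 75365820 to 75367455 and 75378235 to 75379940, ranked between 26.8 and 78.1 over the 6 libraries. The Des ATAC sites starting at 75340358, 75365820 and 75378235 overlapped merged SMC3 sites. That at 75365820 met no SMC3 peak of myotube replicate 2 or siDRR replicate 2. The SMC3 site at 75378235 was the one called in myoblast replicate 2 alone. An ATAC site at 75367890 to 75368268, called in control replicate 2 alone at 41.8, also lay on an SMC3 site.

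Acta1 had fewer ATAC peaks under either knockdown than in control. It had 2 and 3 peaks under siSmc3, 1 and 3 under siDRR, and 6 and 8 in control, or 2.5 ± 0.707, 2 ± 1.41 and 7 ± 1.41 (SD, n = 2 each). Neither knockdown overlapped control, with p = 0.33 for each in the two-sided exact permutation test, the smallest possible. Peaks covered 689 and 1511 bp under siSmc3, 357 and 1732 bp under siDRR, and 3983 and 3980 bp in control. Fewer peaks in both knockdown libraries than in either control library occurred in 2.84% of genome tiles of that length for siSmc3 and 3.44% for siDRR. Those tiles were not matched for peak number, and one with no peak in a control library cannot show the pattern. The 2 comparisons share their control libraries, so they are not separate observations. With equal list lengths the counts were 2 and 2 under siSmc3 against 6 and 3 in control, and 1 and 3 under siDRR against 6 and 3, where the ranges touch. With windows widened by 50 kb the siSmc3 difference was -2.5 in place of -4.5 and the ranges touched (p = 0.67, two-sided exact permutation test). With the better-scoring 50% the counts were 0 and 2 under siSmc3, and 0 and 3 under siDRR, against 2 and 2 in control. Most control peaks of this window thus lay in the lower-scoring part of their lists.

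By site, 2 of the 12 Acta1 ATAC sites were called in 5 of the 6 libraries. The site at 126408056 to 126409310 was absent from siSmc3 replicate 1 and at 68.4 in replicate 2, at 30.7 and 79.0 under siDRR, and at 77.1 and 80.8 in control. The site at 126414939 to 126415697 stood at 44.5 and 64.2 under siSmc3, at 62.8 in siDRR replicate 2 with no peak in replicate 1, and at 44.3 and 47.4 in control. It overlapped the SMC3 peak that myotube replicate 2 alone had called. The site at 126395797 to 126396422 was called in replicate 2 of siDRR, at 63.4, and in replicate 2 of control at a close rank. Another 8 sites were called in 1 library only. The region at 126418394 to 126419176 stood at 31.5 and 20.9 in control and was absent from all 4 knockdown libraries; it counted as lost under siSmc3 and under siDRR. It did not count as lost with the better-scoring 50%, since it ranks in the lower part of both control lists. Nor did it with equal list lengths. There control replicate 1, the shortest list, was left whole, and the cut of control replicate 2 removed the region.

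In the Ttn window most accessible sites were not repeated: 26 of 34, or 76.5%, were called in 1 of the 6 libraries, against 60.1% of sites over the genome. The best-ranked control site, at 76524683 to 76525926, stood at 73.9 in siSmc3 replicate 2 with no peak in replicate 1, at 69.6 and 88.0 under siDRR, and at 86.7 and 92.1 in control. The next, at 76819649 to 76821337, stood at 36.9 in siSmc3 replicate 2, at 64.2 in siDRR replicate 2, and at 86.2 and 75.4 in control; replicate 1 of both knockdowns lacked it. Both sites were chosen by their control ranks, so lower or missing knockdown calls there are no finding. Next to the second, the site at 76822322 to 76823113 had no siSmc3 peak, ranked at 41.0 in siDRR replicate 2, and at 69.3 and 22.8 in control. It counted as lost under siSmc3. With equal list lengths or the better-scoring 50%, it no longer did, and the region at 76819663 counted as lost in its place.

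ATAC peaks of the Ttn window numbered 9 and 13 under siDRR and 8 and 6 in control, the opposite direction from Acta1. Their ranges did not overlap (p = 0.33, two-sided exact permutation test, the smallest possible). More peaks in both siDRR libraries than in either control library occurred in 6.74% of genome tiles of that length, not matched for peak number. The ranges overlapped with windows widened by 50 kb (p = 0.67, exact permutation test). The mean difference was 4 with full lists, 0.5 at equal list lengths and -1.5 with the better-scoring 50%. Under siSmc3 there were 8 and 7 peaks, inside the range of control.

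At Ckm no ATAC region was called in both control libraries. The window had 1 and 1 peaks under siSmc3, 2 and 4 under siDRR, and 2 and 3 in control. Fewer peaks in both siSmc3 libraries than in either control library occurred in 2.94% of genome tiles of that length, not matched for peak number. The exact permutation test gave p = 0.33. The most repeated site, at 19990700 to 19991277, was called in replicate 2 of each condition, at 16.6 under siSmc3, 26.7 under siDRR and 60.2 in control. It lay inside the stronger Ckm SMC3 site, at 19990348 to 19991602. The site at 20006596 to 20006987 stood at 59.6 in siDRR replicate 2 and at 42.2 in control replicate 2. The remaining 8 of 10 Ckm sites were called in 1 library each.

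**Figure D5:**
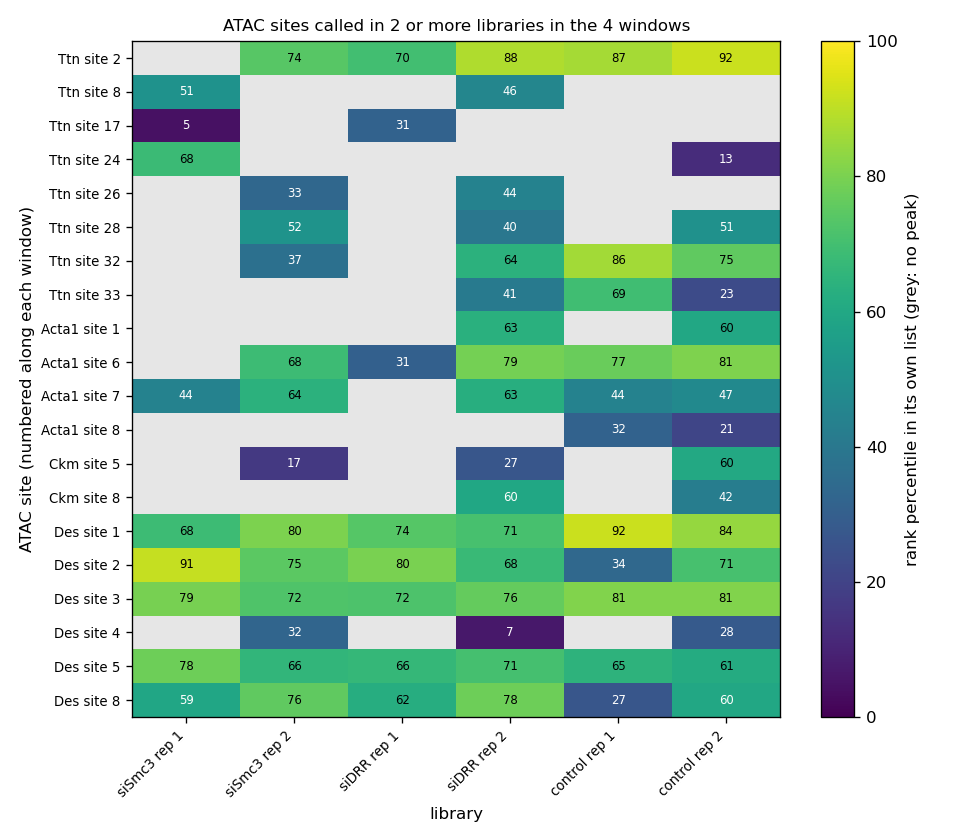
Rank percentile (colour and number, 0 to 100) of the ATAC sites called in 2 or more of the 6 ATAC libraries (columns), by window and site number (rows); grey cells have no peak. The 5 Des sites called in all 6 libraries contrast with Acta1 site 8, which is filled in the 2 control columns only.

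Over the 4 windows, siSmc3 myotubes had 16 and 17 ATAC peaks, siDRR myotubes 17 and 27, and control myotubes 21 and 26. Under siSmc3 the difference from control was -7 (p = 0.33, two-sided exact permutation test, the smallest possible), and under siDRR it was -1.5 (p = 1, same test). The siSmc3 difference shrank to -2 with windows widened by 50 kb and to -1 with the better-scoring 50%, and in both the ranges overlapped (p = 1, exact permutation test). With lists of equal length it was -7.5, from 13 and 9 peaks against 21 and 16. Those ranges stayed apart (p = 0.33, exact permutation test). Leaving out each library in turn, the siSmc3 difference ran from -9.5 to -4.5. The siDRR difference was 0 with the wider windows and -0.5 with the better-scoring 50%. The siDRR difference changed sign without siDRR replicate 1, at 3.5, and without control replicate 2, at 1. Of 11 regions called in both control libraries, 2 were lost under siSmc3, against 8.31% genome-wide, and 1 under siDRR, against 5.85%. Gained regions numbered 0 of 6 under siSmc3, against 9.58% genome-wide, and 0 of 7 under siDRR, against 6.26%. With so few regions, no test was run on these counts. Without siSmc3 replicate 2 the lost count was 5, and without control replicate 1 or 2 it was 12; without siSmc3 replicate 1 or 2 the gained count was 4 or 9. Without siDRR replicate 2 the lost count was 4, and without control replicate 1 or 2 it was 9 or 11; without siDRR replicate 1 or 2 the gained count was 10 either way.

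Among regions called in both libraries of a group, SMC3 and ATAC overlapped at Des alone of the 4 windows. Of 5 SMC3 regions shared by the myotube libraries, 2 overlapped a region of both control ATAC libraries, against 25.2% genome-wide. Both were Des regions, but the second overlapped through the peak of myotube replicate 1 alone. The replicate 2 peak started at 75367574, past the end of the ATAC region at 75367455. Without myotube replicate 1 the count was 2 of 8. The Acta1 peak at 126414475, called in myotube replicate 2 alone, also overlapped a region of both control ATAC libraries. Of 8 regions called in both myoblast libraries, 2 overlapped, both at Des, against 29.5%. Seen from the other side, 2 of 11 control ATAC regions overlapped an SMC3 region of both myotube libraries, against 9.39% genome-wide. The constant Ttn site met an ATAC peak only in siDRR replicate 2, at 76808710 to 76809249 and a percentile of 40.6. The Acta1 site lost under siDRR met none: the nearest ATAC peak, in control replicate 2, lay 301 bp away. These counts rest on few regions and were not tested.

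The DRR RNA was mapped to the 4 windows in 31 summits, which formed 26 regions. None was found by both probe pools, against 1.18% of ChIRP regions genome-wide. Replicate 1 of pool 1 had 0 summits in the windows and replicate 2 had 17; in pool 2 both replicates had 7. In pool 2, 5 of 9 regions were called in both replicates, against 41.1% genome-wide, and in pool 1, 0 of 17 against 5.3%. Background from LacZ probes or input was not analysed here.

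At Acta1, pool 2 gave 2 regions, each in both replicates. The first had summits at 126408179 in replicate 1 and 126408200 in replicate 2, at percentiles of 12.0 and 28.2. The other had summits at 126409357 in replicate 1 and 126409318 in replicate 2, at 96.4 and 93.2, the best-ranked pool 2 summits of the 4 windows in each replicate. The pair flanked the control ATAC peaks of the recurrent site, which spanned 126408374 to 126409310. Both widened regions overlapped that span. The first touched only the peak of control replicate 2, as that of replicate 1 started at 126408489. Over the 4 windows 2 of 5 pool 2 regions called in both replicates overlapped an ATAC region called in both control libraries, against 5.15% genome-wide. This overlap was counted at 250 bp of widening only. Pool 1 had no summit in the Acta1 window.

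At Ttn, pool 1 gave 15 summits, all in replicate 2, and pool 2 gave 4 and 3. Pool 2 summits recurred at 76635905 and 76635925, at 76686560 and 76686569, and at 76746908 and 76746944, in replicate 1 and replicate 2 in that order. Their spacings of 20, 9 and 36 bp compare with a median of 24 bp over 12605 replicate 1 summits that had a replicate 2 summit within 500 bp. The best-ranked of these was 79.0 in replicate 1, at 76686560, and 53.2 in replicate 2, at 76746944. The best-ranked pool 1 summit was at 76523291, at 97.1. A pool 1 summit of replicate 2, at 76767919 and 59.7, fell inside the Ttn SMC3 region at 76767474 to 76768424, 1 of 2 lost on differentiation. None of the Ttn regions overlapped one called in both control ATAC libraries.

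At Des, the ChIRP summits were single calls. Pool 1 had 1 at 75365115 in replicate 2, at 92.5. Pool 2 had 1 in replicate 1, at 75340765 and 44.1, and 2 in replicate 2, at 75356394 and 75371088, with 28.6 and 76.6. The summit at 75340765 lay inside the broad Des SMC3 site, the only 1 of 26 ChIRP regions to overlap an SMC3 region of both myotube libraries, against 1.39% genome-wide. ChIRP regions that overlapped an ATAC region called in both control libraries numbered 4 of 26, against 3.58% genome-wide, 2 at Acta1 and 2 at Des. At Ckm the only summit was at 19985050, in replicate 2 of pool 1, at 37.0.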

How the data were processed

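Peak lists of 16 libraries in 8 groups were used, and the other 10 samples were not analysed here. Each list was deposited with 5 columns and no header; the fifth is a score that the authors' peak caller gave each peak, whose scale is not stated. Build mm9 is named in the submitters' processing notes, which also list MACS2, MACS 1.4.2, Bowtie 1.1.1, cutadapt 1.12, Bowtie2 2.2.4, bcl2fastq 2.17.1 and CASAVA 1.8.2 but assign none of them to an assay. The calling control, read filters and score threshold are not stated in the labels. A library read more deeply tends to give a longer list, and scores were used only to rank peaks inside a list.

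Starts were made 1-based, and only peaks on chromosomes 1 to 19, X and Y were kept. Each ChIRP summit became a region reaching 250 bp to either side. Peaks of the libraries compared were merged on 1 bp of overlap over the whole genome before the windows were read. Groups were taken from the sample titles. Peak numbers were compared with two-sided exact permutation tests in SciPy 1.17.1, with Python 3.11.15. Genome tiles had the length of the window and at least 1 peak in the lists compared. They were not matched to the peak number of the window. A tile with no peak in a library of the group with more peaks cannot show the pattern counted. The shares are therefore not rates for windows of like peak number. Merging and coding were tested on simulated data, where 5000 of 5000 planted sites were coded as planted in each of 20 draws. Planted sites lay far apart and the peaks of a site always overlapped, so this checked the code only. It cannot show how merging acts on real peaks that meet in part. Named regions were the lost and gained ones, the best-ranked per window and group, and the ChIRP regions of both pools or else the best-ranked summit of each pool; other sites were added after their values were seen. The members, windows and lists were chosen with earlier results of these data known. Alternatives were equal list lengths, the better-scoring 50%, wider windows, 500 bp peaks, other ChIRP widths and each library left out.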

Additional observations from a re-analysis of the deposited data

How the results depend on the processing

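With 2 libraries a group no difference in peak number could reach significance, so these alternatives bear on direction and counts. With lists of equal length the difference in SMC3 peaks over the 4 windows turned to 1 for myotubes over myoblasts and to 0.5 for siDRR over myotubes. SMC3 losses then numbered 0 in both comparisons, SMC3 gains in myotubes 1, and ATAC losses 1 under siSmc3 and 0 under siDRR. The better-scoring 50% left 0 SMC3 losses in both comparisons, 1 ATAC loss under siSmc3, 0 under siDRR and 1 overlap of SMC3 with ATAC; it also turned the Ttn ATAC difference under siDRR to -1.5. Windows widened by 50 kb gave 4 SMC3 losses under siDRR and 4 overlaps. Leaving out each library in turn, the ATAC peak difference under siDRR ran from -6.5 to 3.5 and the SMC3 difference under siDRR from -4.5 to 0.5. The ATAC peak difference under siSmc3 kept its sign, from -9.5 to -4.5, and was -7.5 with lists of equal length. ATAC losses ran from 2 to 12 under siSmc3 and from 1 to 11 under siDRR, and ATAC gains from 0 to 9 and from 0 to 10. SMC3 losses under siDRR ran from 1 to 3, and SMC3 gains from 0 to 1 both in myotubes and under siDRR. Leaving out the replicate 1 libraries of myotubes and siDRR together, an alternative chosen after seeing the data as were those for single windows, gave 2 losses and 1 gain. A count with 1 library in a group asks less of a region, which by construction can raise it; other causes were not tested. ChIRP regions of both pools stayed at 0 with summits widened by 500 bp and with wider windows; the other alternatives run could not have raised the count. A replicate block left the differences the same, at -3 for myotubes over myoblasts and -2 for siDRR in SMC3 and at -1.5 for siDRR and -7 for siSmc3 in ATAC, with p = 0.5, 0.5, 1 and 0.5 in that order in exact permutation tests that cannot go below 0.5. The labels do not say that replicate numbers pair libraries; deviations of same-numbered libraries correlated at 0.0791 and 0.0364 for SMC3 and at 0.117 and 0.152 for ATAC.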
